A study of Mus musculus with 16 samples.

Results

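The mouse miRNAs numbered from 1000 to 4999 were examined in serum across 4 ages. MicroRNAs carry numbers in the order of their registration, so these names stand for the middle of the catalogue, after the classic miRNAs and before the most recent entries. Of the 1881 mouse miRNAs on the array, 267 had such a number, with any letter or arm. The numbers 1188, 1193, 1197, 3070, 3071 and 3072 were left out. The rule itself uses no measured value, although it was set with earlier results of these data known.

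Serum came from heart blood of male mice aged 4, 8, 36 and 58 weeks, with 4 mice at each age, and the labels name no treatment or genetic change. The study asked which serum miRNAs differ with age. From each serum, 1 ng of RNA was labelled with the dye Cy3 and read on its own Agilent miRNA array, a slide of short DNA probes to which labelled RNA binds. The strain is not given in the sources used here.

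A microRNA is a short RNA cut from a hairpin, the folded part of a longer transcript, and guides a protein of the Argonaute family to messenger RNAs that pair with it. Pairing rests mostly on the seed, bases 2 to 8 from the 5′ end. Each arm of the hairpin, named 5p or 3p, can give a mature miRNA, and often 1 arm is kept while the other is degraded. In serum, miRNAs travel in vesicles, in lipoproteins or bound to Argonaute, and much of the pool derives from blood cells. Many miRNAs with higher numbers were first found by deep sequencing, at low copy number, and some lie in repeats or in fragments of other RNAs.

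Mature sequences from the RefSeq table (build GRCm38.p6) matched 228 of the 267 names. Those on which the results turn follow, 5′ to 3′, with the seed in capitals. The first group was detected on all 16 arrays.
miR-3963: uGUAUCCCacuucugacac
miR-3473b: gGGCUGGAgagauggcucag
miR-1224-5p: gUGAGGACuggggagguggag

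Next are miRNAs rich in C that were bright on the arrays with the noisiest background. The last of them, miR-1249-3p, was not called detected on the noisiest, replicate 4 at 36 weeks.
miR-1894-5p: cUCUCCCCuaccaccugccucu
miR-1943-3p: cAGGUGCCagcuccucccuuc
miR-1952: uCUCCACCcuccuucug
miR-1224-3p: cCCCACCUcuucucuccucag
miR-1249-3p: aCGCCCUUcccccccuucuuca

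The following are rich in G, and none of them was detected on the marked array at 36 weeks, the noisiest.
miR-1894-3p: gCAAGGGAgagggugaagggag
miR-3547-5p: gUGGGAAGagggguggggcccggga
miR-3102-5p: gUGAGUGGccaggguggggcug
miR-2861: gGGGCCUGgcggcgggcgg
miR-1892: aUUUGGGGacgggagggaggau

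Other names of the miR-3473 family are shown because most of them share 1 stretch with miR-3473b.
miR-3473a: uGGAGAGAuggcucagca
miR-3473e: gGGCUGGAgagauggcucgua
miR-3473f: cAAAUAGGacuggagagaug
miR-3473g: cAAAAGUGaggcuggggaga
miR-3473d: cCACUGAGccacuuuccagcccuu

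The last set holds a pair with a common core and a pair of repeats of G and U.
miR-3968: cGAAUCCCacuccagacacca
miR-1187: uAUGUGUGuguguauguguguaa
miR-3082-5p: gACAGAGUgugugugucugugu

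Most of these miRNAs were not seen in serum. The scanner software called 74 of the 267 (27.7%) detected on at least 1 array and 193 on none, and 13 of the 74 were detected on a single array. Among miRNAs numbered under 1000, with let-7, 243 of 819 (29.7%) were detected at least once, and among those numbered 5000 or higher 252 of 782 (32.2%) were. All 16 arrays detected 3 of the 267, against 19 of the 819 and 2 of the 782. An array detected between 22 and 46 of the 267, which made up 12.5% to 15.2% of all mouse miRNAs detected on it. Mean numbers were 38.0 ± 5.48 (SD, n = 4) at 4 weeks, 31.5 ± 3.7 (SD, n = 4) at 8 weeks, 32.0 ± 8.52 (SD, n = 4) at 36 weeks and 30.2 ± 7.37 (SD, n = 4) at 58 weeks. The ranges of all 4 ages overlapped.

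The arrays lay on 2 slides, and each slide held whole ages. Slide 1 held 4 and 8 weeks and slide 2 held 36 and 58 weeks, and age cannot be told apart from slide except between 4 and 8 weeks and between 36 and 58 weeks. Feature Extraction, the scanner software, marked 3 arrays for evaluation: replicates 1 and 4 at 4 weeks and replicate 4 at 36 weeks. The SD of their negative-control spots, designed to bind no mouse RNA, was 19.1, 7.45 and 59.3 signal units, against 1.82 to 4.45 on the other 13. Serum was checked against blood miRNAs outside the set. The erythrocyte miRNAs miR-451a and miR-486a-5p and the platelet and leukocyte miRNA miR-223-3p were detected on all 16 arrays, miR-16-5p, miR-126a-3p and the liver miRNA miR-122-5p on 15, and the erythrocyte miRNA miR-144-3p on 6.

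Signals below are log2 of the scanner's background-subtracted intensity after scaling each array on 24 miRNAs detected everywhere, 3 of which are in this set. They are given for replicates 1 to 4 in turn, and 1.92 is the floor, the level to which lower signals were raised. Different probes bind with different strength, so no level is set against that of another miRNA.

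For the 3 miRNAs detected throughout, no age stood apart from the others. miR-3963 read 13.13, 13.19, 12.88 and 11.99 at 4 weeks, and 11.81, 11.87, 11.88 and 12.92 at 8 weeks. It read 12.71, 13.39, 12.75 and 12.50 at 36 weeks, and 12.43, 12.65, 12.83 and 13.10 at 58 weeks. Replicate 4 at 4 weeks was low for its age and replicate 4 at 8 weeks high for its age, and all ages overlapped. Its slope was 0.07 ± 0.10 (SE) per doubling of age, with limma's adjusted p of 0.634. Its mature sequence lies at chr3:151023839-151023857 on the minus strand, in the span of no other gene of the RefSeq table.

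miR-3473b, which lies at chr10:41670774-41670793 on the plus strand in the span of Ccdc162, was variable within each age. Its levels were 10.47, 11.56, 10.73 and 9.78 at 4 weeks, 9.67, 9.09, 9.79 and 10.88 at 8 weeks, 10.07, 10.66, 10.51 and 8.75 at 36 weeks, and 9.94, 9.47, 10.03 and 9.50 at 58 weeks. The highest value was at 4 weeks and the lowest on the marked array at 36 weeks, and the ages overlapped. The difference of 58 minus 4 weeks was -0.90 ± 0.54 (SE, log2), adjusted p = 0.864 with limma.

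miR-1224-5p comes from a mirtron, a hairpin that is itself a short intron and is released by splicing rather than by the nuclease Drosha, within Vwa5b2 at chr16:20604452-20604472 on the plus strand. Its SD within an age was between 0.22 and 0.46. The arrays read 9.65, 9.02, 9.42 and 9.74 at 4 weeks, 9.13, 9.49, 9.51 and 9.12 at 8 weeks, 9.52, 8.51, 9.36 and 9.39 at 36 weeks, and 9.30, 9.58, 8.76 and 8.82 at 58 weeks. No age stood apart, and the slope was -0.08 ± 0.08 (SE) per doubling of age with limma's adjusted p of 0.525. Its 2 probes read 10.14 and 6.50 on average and both had a lower mean at 58 than at 4 weeks.

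**Figure D1:**
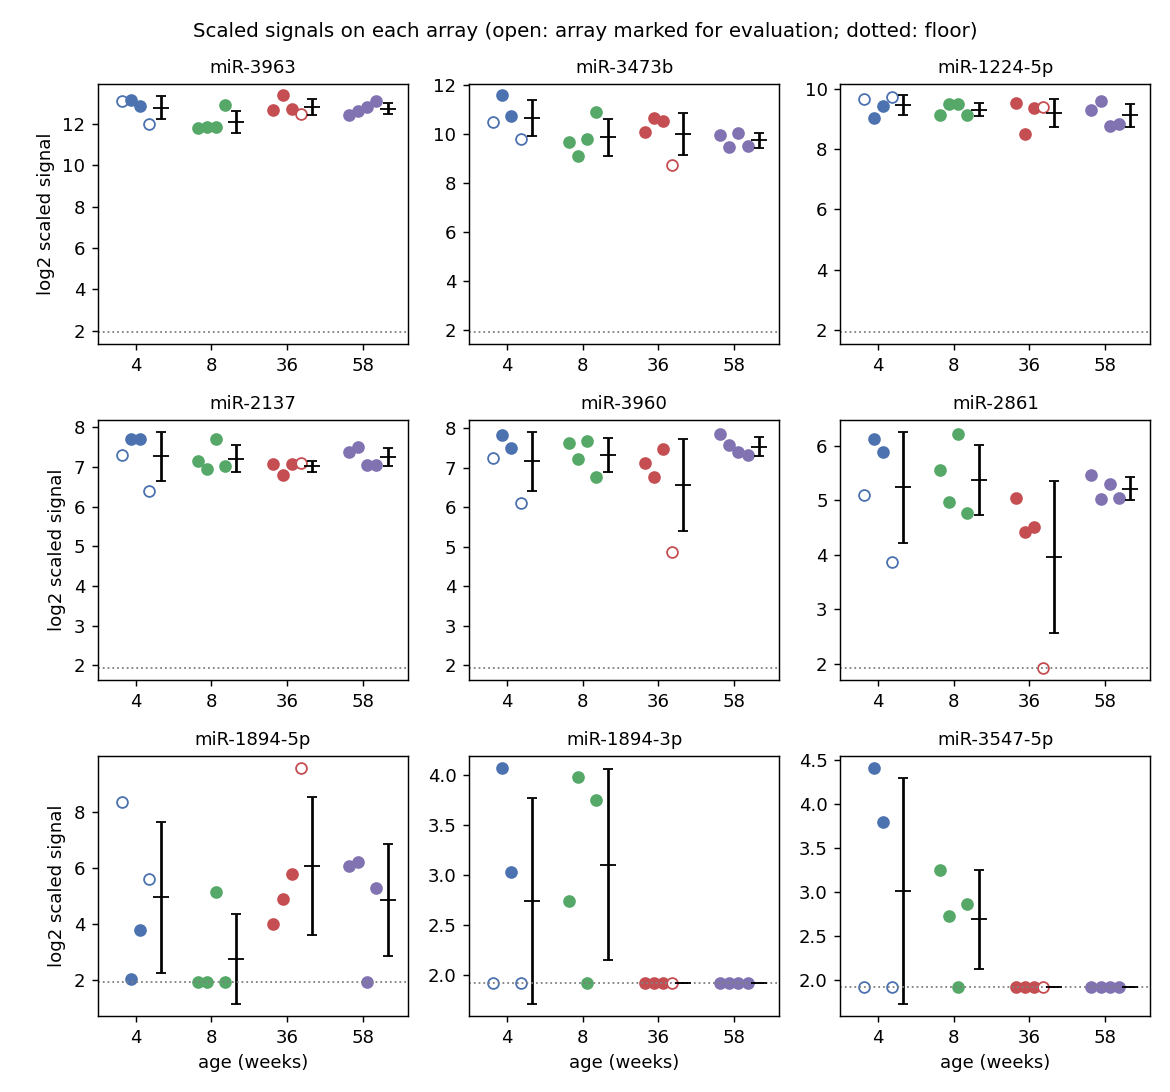
Log2 scaled signal (y axis) by age in weeks (x axis) for 9 miRNAs, with 1 point per array, open points for the 3 marked arrays, black bars for mean ± SD of 4 arrays and a dotted line at the floor of 1.92. Ages overlapped for miR-3963, miR-3473b and miR-1224-5p. miR-1894-3p and miR-3547-5p lay at the floor on every array of 36 and 58 weeks. Both were also there on replicates 1 and 4 at 4 weeks and replicate 3 at 8 weeks, so their ages overlapped too.

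A further 7 were detected on 15 arrays: miR-2137, miR-3960, miR-3473g, miR-3082-5p, miR-3473a, miR-1249-3p and miR-3968. The array they missed was in each case the marked one at 36 weeks. miR-2137, in the span of Zfp185 on the X chromosome, read 7.29, 7.71, 7.71 and 6.39 at 4 weeks, 7.16, 6.95, 7.70 and 7.03 at 8 weeks, 7.08, 6.79, 7.07 and 7.11 at 36 weeks, and 7.39, 7.50, 7.04 and 7.06 at 58 weeks. These ranges overlapped too, and its 2 probes differed in the sign of the difference of 58 minus 4 weeks.

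miR-2861 and miR-3960 form a cluster known from osteoblasts, the cells that build bone, where both promote differentiation, and the pair was detected together in serum. miR-3960 read 7.24, 7.83, 7.49 and 6.11 at 4 weeks, 7.63, 7.23, 7.67 and 6.76 at 8 weeks, 7.11, 6.77, 7.48 and 4.87 at 36 weeks, and 7.85, 7.56, 7.40 and 7.33 at 58 weeks. miR-2861 was detected on 14 arrays and read 5.10, 6.13, 5.88 and 3.87 at 4 weeks, 5.55, 4.96, 6.21 and 4.77 at 8 weeks, 5.04, 4.41, 4.51 and 1.92 at 36 weeks, and 5.47, 5.03, 5.30 and 5.04 at 58 weeks. Both were lowest on the marked array at 36 weeks and next lowest on marked replicate 4 at 4 weeks. Between 36 and 58 weeks, which share a slide, the difference was 0.97 ± 0.56 (SE, log2) for miR-3960 and 1.24 ± 0.66 (SE, log2) for miR-2861, and limma's adjusted p was 0.717 for each. Without the 3 marked arrays it was 0.41 for miR-3960 and 0.56 for miR-2861, with limma's adjusted p of 0.867 for both.

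The other lists of kin were mostly silent. None of the 6 names of the Htr2c intron cluster (miR-1264, miR-1298 and miR-1912), which sits in a serotonin receptor gene active in brain, was detected on any array. A further name in the span of Htr2c, miR-3552, which has more C than G, was detected on 6 arrays: 2 each at 4, 36 and 58 weeks. Its highest signals were 6.87 and 8.57, on marked replicates 1 at 4 weeks and 4 at 36 weeks. Also detected on no array were 7 names transcribed from the strand opposite another miRNA (miR-3065, miR-3074 and miR-3544) and both arms of miR-1247, which lies near Dio3. miR-1306-5p, within the transcript of Dgcr8, itself a part of the miRNA-processing complex, was detected on 2 arrays. miR-1839-3p, from a small structural RNA, was detected on 1 array, and of 6 names in the span of small Cajal body RNAs (miR-1843a, miR-1843b and miR-3069) miR-1843b-3p was, on 4 arrays. Among names grouped by number and letter, 0 of 3 miR-1191, 0 of 2 miR-1946 and 0 of 4 miR-3073 names were detected, against 1 of 4 for miR-1843 and 1 of 2 for miR-1957.

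The miR-3473 family was the exception, with 6 of 7 names detected and tested. Its core is a sequence known from the start of B2 elements, short repeats scattered through the mouse genome. miR-3473b shares 18 bases in a row with miR-3473e, 16 with miR-3473a (UGGAGAGAUGGCUCAG), 11 with miR-3473f and 6 with miR-3473g. miR-3473b and miR-3473e have the same seed, GGCUGGA. The 16-base stretch occurred in no miRNA of the array with a sequence other than these 2. miR-3473c and miR-3473d instead hold runs of 12 and 8 bases from the complementary strand. Whether probes of the names with long shared runs also bind each other's RNA was not tested, so their values cannot be taken as independent.

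Within the family, miR-3473a and miR-3473d peaked on different arrays. miR-3473a read 4.70, 7.10, 6.05 and 4.16 at 4 weeks, 4.81, 3.77, 4.66 and 6.21 at 8 weeks, 5.0, 5.93, 5.66 and 1.92 at 36 weeks, and 4.73, 3.47, 5.20 and 4.34 at 58 weeks. Like miR-3473b, it was high on replicate 2 at 4 weeks and replicate 4 at 8 weeks, and lowest on replicate 4 at 36 weeks. miR-3473d, which holds more C than G where the other tested names hold more G than C, read 7.61, 1.92, 2.76 and 4.89 at 4 weeks, 1.92, 1.92, 4.46 and 1.92 at 8 weeks, 3.20, 4.15, 5.15 and 8.97 at 36 weeks, and 5.37, 5.46, 1.92 and 4.54 at 58 weeks. It was highest on replicate 4 at 36 weeks, where miR-3473a was lowest, and lay at the floor on replicate 2 at 4 weeks and replicate 4 at 8 weeks.

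Related letters also occurred outside families. miR-3963 and miR-3968 both hold AUCCCACU from base 4 on, which no other of 1608 mouse miRNAs with a sequence holds, and miR-3968 ends in CCA. Their levels nevertheless differed in pattern: miR-3968 read 6.15, 4.86, 4.86 and 3.62 at 4 weeks, 4.17, 3.89, 3.30 and 2.18 at 8 weeks, 3.91, 4.56, 4.61 and 7.41 at 36 weeks, and 5.09, 4.63, 3.84 and 4.70 at 58 weeks. It peaked on the marked array at 36 weeks, on which it was not called detected. miR-1187 and miR-3082-5p share a run of GUGUGUGUGU, found in 3 of the 1608, the other being miR-574-5p. Both read low on replicate 4 at 4 weeks (2.71 and 4.36) and on replicate 4 at 8 weeks (3.59 and 4.27), and neither was detected on the marked array at 36 weeks.

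Detection split into opposite patterns over the arrays, and base composition went with the split. The marked array at 36 weeks detected 29 of the set and replicate 2 at 8 weeks, the array with the lowest negative-control SD, detected 33, yet they had only 3 in common. That is 10.3% of the first list and 9.09% of the second, and for the other mouse miRNAs the 23 shared were 13.1% of 176 and 12.4% of 186, so little overlap was not particular to this set. Of the 26 detected on the former and not the latter, 24 had a sequence, and all 24 held more C than G, with a median of 45.5% C and 14.3% G. Of the 30 detected only on the latter of these arrays, 27 had a sequence, of which 23 held more G than C and 4 more C than G, with medians of 18.2% C and 40.9% G. Total GC content was alike, with medians of 61.9% and 63.6%. The arrays and the split by composition were chosen after the detection calls were seen, so this is a description.

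**Figure D2:**
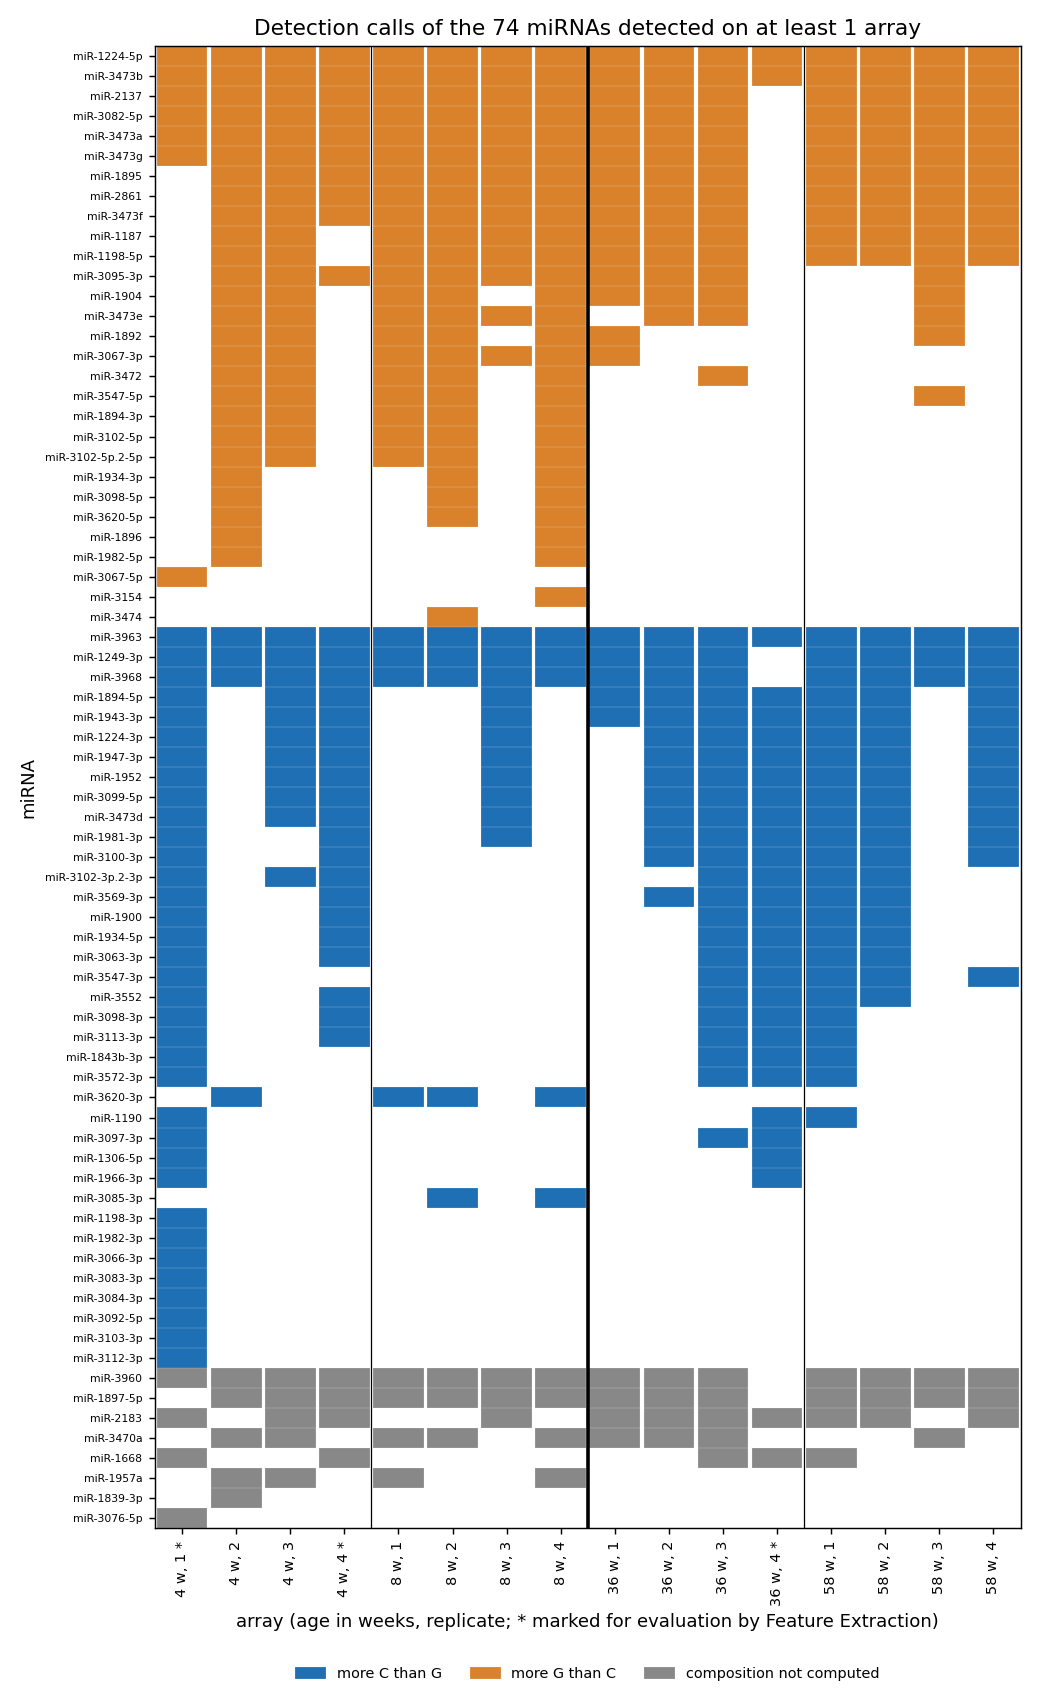
Detection call (filled cell) of each of the 74 detected miRNAs (rows) on each of the 16 arrays (columns, by age in weeks and replicate), blue for more C than G, orange for more G than C and grey where composition was not computed; the thick line separates the 2 slides and asterisks mark the 3 arrays marked for evaluation. Most blue rows fill on replicate 1 at 4 weeks, replicate 4 at 36 weeks and replicate 1 at 58 weeks, and empty on replicate 2 at 4 weeks and replicates 1, 2 and 4 at 8 weeks, while the orange rows do the reverse.

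The balance shifted from array to array, also among unmarked ones. At 4 weeks the arrays detected 35, 4, 11 and 20 miRNAs with more C than G and 7, 26, 21 and 10 with more G than C. At 8 weeks the first kind numbered 4, 5, 11 and 5 and the second 21, 25, 14 and 27. At 36 weeks they numbered 5, 13, 24 and 25 against 15, 14, 15 and 2, and at 58 weeks 24, 19, 3 and 13 against 11, 11, 16 and 11. Every age thus held both an array with at least 11 of the C-rich kind and an array with fewer than 6.

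The same tilt ran through all members, detected or not. On each array the share of C minus the share of G was set against the unscaled signal over the 228 miRNAs with a sequence, as a description over probes of 1 array. Spearman's rho was 0.687 on the marked array at 36 weeks, 0.580 and 0.474 on marked replicates 1 and 4 at 4 weeks, and between -0.09 and 0.495 on the other 13. On the 4 arrays with a negative-control SD of at most 2.03 (replicate 2 at 4 weeks and replicates 1, 2 and 4 at 8 weeks) rho lay between -0.09 and -0.03. Over 1380 miRNAs with other numbers rho was 0.754 on the marked array at 36 weeks and 0.109 on replicate 2 at 8 weeks, so the tilt was not particular to these names. On that marked array, 74 of 92 members with more C than G (80.4%) had a signal above 0, against 15 of 116 with more G than C (12.9%). Among the other miRNAs the shares were 77.2% and 12.3%. Whether background binding or RNA in the sample produced the tilt was not tested.

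**Figure D3:**
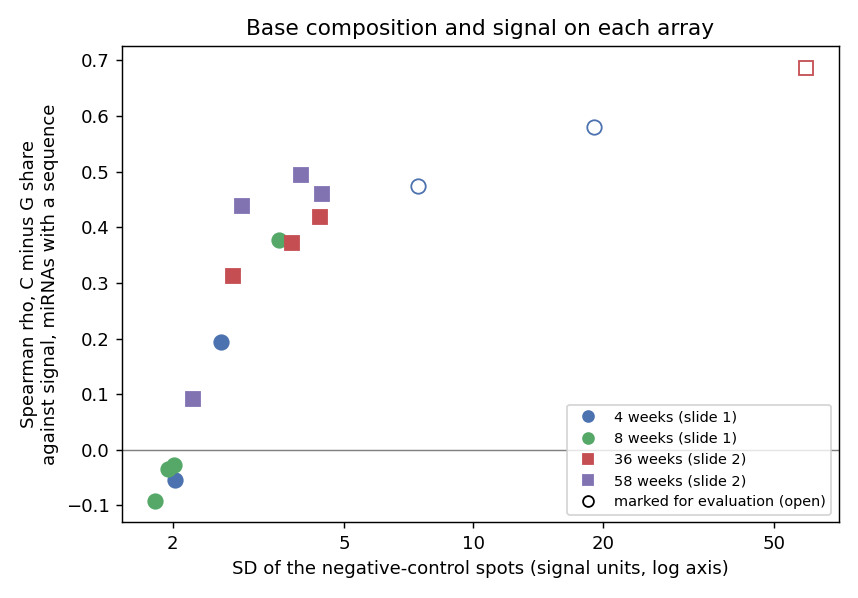
Spearman's rho between C minus G share and signal over 228 miRNAs (y axis) against the SD of the negative-control spots (x axis, log scale), with 1 point per array, coloured by age, circles for slide 1, squares for slide 2 and open symbols for the 3 marked arrays. The arrays with the lowest SD lie near or below 0 and the marked array at 36 weeks, at an SD of 59.3, is highest at 0.687.

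The arms of single hairpins followed the split only in part. The set held 90 hairpins with both arms on the array; neither arm was detected for 54, only the 5p arm for 7, only the 3p arm for 20 and both arms for 9. Of these 9, only 3 had any array that detected both arms: miR-1224 (10 arrays), miR-3620 (3 arrays) and miR-1894 (1 array). The arms of miR-1894, from the span of Ppp1r10, a regulatory subunit of protein phosphatase 1, are near mirror images in composition, with 59.1% C and 4.55% G in the 5p arm and the reverse in the 3p arm.

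miR-1894-5p was detected on 11 arrays and ranged widely. It read 8.33, 2.02, 3.79 and 5.61 at 4 weeks, 1.92, 1.92, 5.13 and 1.92 at 8 weeks, 4.00, 4.89, 5.76 and 9.57 at 36 weeks, and 6.05, 6.19, 1.92 and 5.26 at 58 weeks. The highest values were on marked arrays, and each age other than 36 weeks had an array at or near the floor. miR-1894-3p was detected on 5 arrays and read 1.92, 4.07, 3.03 and 1.92 at 4 weeks, 2.74, 3.98, 1.92 and 3.75 at 8 weeks, and 1.92 on all 8 arrays of 36 and 58 weeks. On all 5 arrays where the 3p arm was above the floor the 5p arm was below 4, whereas on replicate 3 at 58 weeks both were at the floor.

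Unrelated hairpins followed miR-1894-5p closely. miR-1943-3p, from the span of Tmem184b, read 7.91, 2.13, 3.73 and 5.18 at 4 weeks, 1.92, 1.92, 5.06 and 1.92 at 8 weeks, 3.81, 4.66, 5.55 and 9.30 at 36 weeks, and 5.88, 6.03, 1.92 and 5.22 at 58 weeks. miR-1952 read 7.50, 1.92, 3.05 and 4.89, then 1.92, 1.92, 4.66 and 1.92, then 3.64, 4.36, 5.24 and 8.98, and lastly 5.55, 5.69, 1.92 and 4.90 at the same ages. Their seeds are different, and all 3 hold more C than G. miR-2183 and miR-1224-3p showed the same order of peaks, with 9.18 and 8.71 on the marked array at 36 weeks and 1.92 on replicates 1, 2 and 4 at 8 weeks.

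For tests of age, a miRNA had to be detected on at least 3 of 4 arrays of 1 age, which left 285 mouse miRNAs, 41 of them from this set (15.4% of its 267). Of the 41, 21 held more G than C and 16 more C than G. limma called none of the 41 at an adjusted p under 0.05 in any of 8 comparisons. In the F test over 4 ages 0 of 41 passed (0.351% of all tested miRNAs did) and 0 had an unadjusted p under 0.05 (4.56% of all). In the trend with the logarithm of age 0 passed (0.351% of all) and 2 had an unadjusted p under 0.05 (8.77% of all), both with a falling slope.

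Pairs of ages gave the same picture. Between 8 and 4 weeks, on 1 slide, limma called 0 of the 41 (0% of all), and 0 had an unadjusted p under 0.05 (2.11% of all). Between 58 and 36 weeks, on the other slide, 0 were called (0% of all), and 0 had an unadjusted p under 0.05 (1.75% of all). Across slides, 36 against 4 weeks gave 0 called (0.351% of all) and 0 at an unadjusted p under 0.05 (3.51% of all), and 58 against 4 weeks 0 called (0.351% of all) and 0 unadjusted (4.56% of all). For 58 against 8 weeks 0 were called (0% of all) and 1 had an unadjusted p under 0.05 (5.26% of all), namely miR-1894-3p, lower at 58 weeks. That miRNA entered the tests only through 8 weeks, the age with its highest mean, so the difference is no independent result. For 36 against 8 weeks 0 were called (0% of all), although 12 of 41 had an unadjusted p under 0.05, 11 higher and 1 lower at 36 weeks. That share was close to the background, which was 29.8% of all tested.

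Median differences show how the set moved as a whole. At 8 minus 4 weeks the median over the 41 was -0.54 against -0.72 over all 285 (log2), with 30 lower and 11 higher, but quantile normalization gave 0.31 against 0.20, so that this direction depends on the scaling. At 36 minus 8 weeks the medians were -0.18 and 0.71, and at 58 minus 36 weeks -0.31 and -0.52. Without replicate 4 at 36 weeks alone they were 0.33 and 0.77 at 36 minus 8 weeks and 0.13 and 0.06 at 58 minus 36 weeks. At 36 minus 4 weeks they were -0.32 and 0.32, at 58 minus 4 weeks -0.04 and -0.0031, and at 58 minus 8 weeks 0.15 and 0.71. At 36 minus 4 weeks the medians without that array were -0.15 and -0.06. The slope per doubling of age had a median of -0.06 in the set and 0.12 over all, and without that array 0.03 and 0.10. Normexp gave positive medians in the set for the slope (0.08) and for 36 minus 8 (0.24), 36 minus 4 (0.21) and 58 minus 4 weeks (0.25). Scaling mattered across slides as well. Quantile normalization gave -0.60 against -0.33 over all at 36 minus 8 weeks, and -0.21 against 0.05 at 58 minus 8 weeks. Without scaling, 58 minus 8 weeks gave -0.40 against 0.16, and 58 minus 4 weeks -1.06 against -0.95. The software's total signal gave -0.16 against 0.16 at 36 minus 8 weeks, and 0.04 against 0.57 at 58 minus 8 weeks.

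These medians merge both kinds of composition. All 16 tested miRNAs with more C than G had a mean higher at 36 than at 8 weeks, by a median of 2.59 (log2), while 19 of 21 with more G than C were lower, by a median over the 21 of 0.74 on the log2 scale. The slope with age was above 0 for all 16 of the former (median 0.30) and below 0 for 20 of 21 of the latter (median -0.20). At 8 minus 4 weeks, within a slide, all 16 of the C-rich kind were lower (median -1.56), and 13 of 21 of the G-rich kind were. Without the 3 marked arrays, of which 2 are at 4 weeks, 11 of the 16 were higher and 5 lower (median 0.12), and 19 of the 21 were lower (median -0.71). Of the 41, 12 passed the detection filter through a single age, for 5 of them the age with their highest mean, so the filter itself bears on these signs and the counts are descriptions. Since members of a kind rose and fell together on single arrays, these counts do not stand for independent miRNAs.

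The members with the smallest p in the trend were G-rich and near the floor. miR-3547-5p, from the span of Baiap3, read 1.92, 4.41, 3.79 and 1.92 at 4 weeks, 3.25, 2.73, 1.92 and 2.87 at 8 weeks, and 1.92 on all 8 arrays of the older ages. On replicate 3 at 58 weeks it was nevertheless called detected, with a signal that was raised to the floor. Its slope was -0.30 ± 0.12 (SE) per doubling of age, with limma's adjusted p of 0.464, and it shares its seed with miR-6368, which was detected on 14 arrays. miR-1894-3p had a slope of -0.29 ± 0.12 (SE), with limma's adjusted p of 0.525. Both entered the tests only through 8 weeks, which for miR-1894-3p was the age with its highest mean. Neither was detected on any array at 36 weeks, and the floor there set their fitted difference. With normexp background correction their slopes were above 0, at 0.063 and 0.0454.

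Others near the top had more arrays above the floor. miR-1904, in the span of Pde4d, a phosphodiesterase gene, read 3.28, 4.84, 4.33 and 3.72 at 4 weeks, 3.30, 3.74, 2.13 and 4.37 at 8 weeks, 3.42, 3.47, 3.98 and 1.92 at 36 weeks, and 3.33, 2.70, 3.13 and 2.40 at 58 weeks. Ages overlapped, and 58 minus 4 weeks was -1.15 ± 0.57 (SE, log2) with limma's adjusted p of 0.864, turning to 0.29 under normexp. miR-1895, in the span of Cxxc4, a Wnt pathway regulator, read 5.0, 7.23, 6.36 and 5.24 at 4 weeks, 5.55, 5.44, 5.59 and 6.41 at 8 weeks, 5.45, 5.87, 5.60 and 1.92 at 36 weeks, and 5.05, 4.93, 5.33 and 4.32 at 58 weeks. Its slope was -0.32 ± 0.16 (SE) with limma's adjusted p of 0.525.

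miR-3067-3p, from the span of Smoc1, was detected on all 4 arrays at 8 weeks and on none at 58 weeks. It read 3.89, 4.14, 4.45 and 3.40 at 4 weeks, 4.77, 4.34, 4.96 and 3.88 at 8 weeks, 3.88, 2.97, 3.18 and 4.08 at 36 weeks, and 4.17, 3.87, 2.83 and 3.30 at 58 weeks. It entered the tests only through 8 weeks, the age with its highest mean, so its difference from 58 weeks is no independent result. The ranges overlapped.

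The largest fitted differences among the members named lay between 36 and 8 weeks, for C-rich miRNAs and miR-2183. miR-1894-5p differed by 3.33 ± 1.44 (SE, log2), miR-2183 by 3.16 ± 1.33, miR-1943-3p by 3.13 ± 1.38 and miR-1952 by 2.95 ± 1.32, and limma's adjusted p was 0.151 for all 4. Their SD among 4 arrays of 36 weeks was between 2.30 and 2.45, and the marked array was the highest of the 4 for each. miR-3100-3p, miR-3569-3p, miR-3547-3p and miR-3102-3p.2-3p were detected on no array at 8 weeks, and at 36 weeks 3, 3, 2 and 2 of the 4 arrays detected them. When replicate 4 at 36 weeks was left out, the arrays with detection were 2, 2, 1 and 1 of 3. Set against the floor or their own signal at 8 weeks, they were then at least 2.91-fold, 2.61-fold, 2.85-fold and 2.41-fold higher at 36 weeks. With that array these values were 6.40-fold, 6.08-fold, 5.97-fold and 5.38-fold, so 1 array raised them by over 1.5 times. The means at 36 weeks take in arrays without detection, so the bounds are approximate. The 4 were picked for having no detection at 8 weeks. miR-3569-3p also entered the tests only through 36 weeks, the age with its highest mean. Their direction is therefore no independent result.

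Without the 3 marked arrays the trend called 23 of the 41. Then 13 had a rising slope, 12 of them with more C than G, and 10 a falling slope, 9 of them with more G than C. Over all 285 tested, 54.7% were called in that fit, close to the set's share of 56.1%. The largest rising slope among those named was that of miR-1894-5p, 0.66 ± 0.24 (SE, adjusted p = 0.0338 with limma), against 0.34 with all arrays. The smallest adjusted p belonged to the falling slope of miR-3102-5p.2-5p, from the span of Arhgef17, at -0.48 ± 0.09 (SE, adjusted p = 0.0122 with limma). Its slope was -0.27 with all arrays and 0.084 with all arrays under normexp. It entered the tests only through 8 weeks, the age with its highest mean, so its fall is no independent result. The same holds for the falls of miR-1894-3p, miR-3067-3p and miR-3473e. The rising miR-3569-3p likewise entered only through 36 weeks, the age with its highest mean. The falling miR-1892, miR-3102-5p, miR-3472 and miR-3547-5p entered through 8 weeks alone, with their highest mean at 4 weeks. The detection filter thus bears on these signs, and their split by composition is a description. With all 16 arrays weighted by their quality, limma called 28 of the 41 in the trend, 15 rising and 13 falling, and 68.8% of all tested.

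The same 13 arrays showed no call within a slide. limma called 0 of the 41 between 8 and 4 weeks (0% of all), with 10 at an unadjusted p under 0.05 (34 of all 285). Between 58 and 36 weeks limma called 0 (0% of all), with 2 unadjusted (18 of all 285). With slide added to the trend it called 0 (0% of all), with 10 at an unadjusted p under 0.05 (45 of all 285). Between 58 and 4 weeks, which lie on different slides, 8 were called, all lower at 58 weeks: miR-1892, miR-1895, miR-3102-5p, miR-3102-5p.2-5p, miR-3470a, miR-3472, miR-3473e and miR-3547-5p. Over all tested, 12.3% were called there. In this comparison age and slide cannot be told apart. miR-3102-5p.2-5p and miR-3473e entered the tests only through 8 weeks, the age with their highest mean. miR-1892, miR-3102-5p, miR-3472 and miR-3547-5p also entered through 8 weeks alone, with their highest mean at 4 weeks. The detection filter thus bears on the shared direction.

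**Figure D4:**
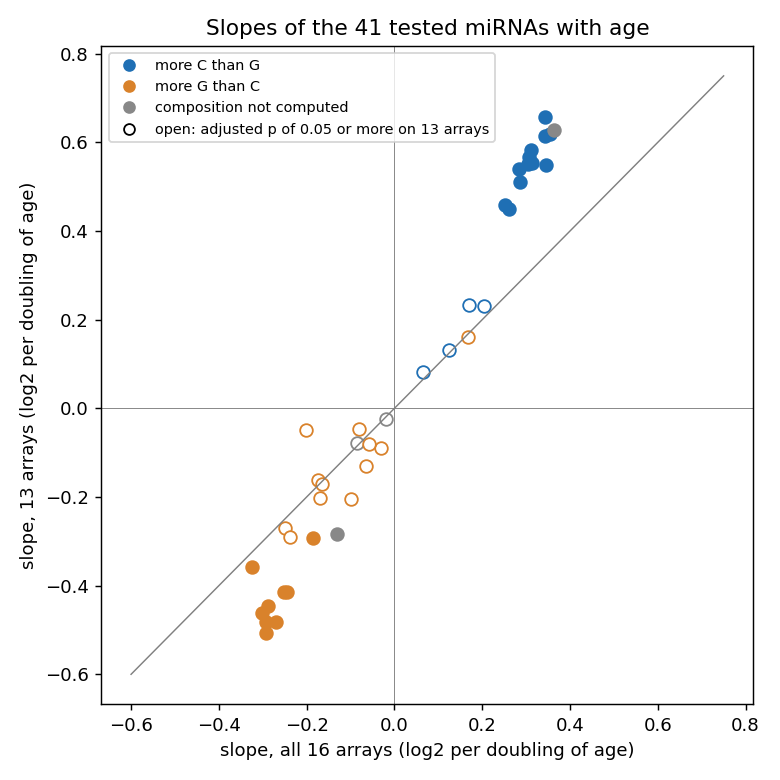
Slope in log2 per doubling of age of the 41 tested miRNAs with all 16 arrays (x axis) and with the 13 unmarked arrays (y axis), blue for more C than G, orange for more G than C and grey where composition was not computed, filled where limma's adjusted p was under 0.05 on 13 arrays; the line marks equal slopes. Blue points lie above 0 on both axes and all orange points but 1 below 0 on both, and slopes of the 23 filled points are steeper on 13 arrays.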

How the data were processed

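Serum RNA of 16 mice was hybridized 1 sample per array. The authors deposited scanner output with spot intensity values (background-subtracted), made with Agilent Feature Extraction (version 11.5 in the submitters' processing notes and 11.5.1.1 in the headers of the files), together with the detection call of each miRNA. An array holds 58594 spots, of which 2.32% to 4.48% of miRNA spots were flagged as outliers and left out; 0 were saturated. Spots were averaged by probe and probes by miRNA (558 probes for the 267). Arrays were brought to a common 75th percentile of the 24 miRNAs that every array detected, and values were floored at 3.79 and log2 transformed. The floor is the median over arrays of the lowest signal above 0 of a detected miRNA. Comparisons of ages used lmFit and eBayes of limma 3.58.1 (R 4.3.3), with Benjamini-Hochberg over all 285 miRNAs tested, threshold 0.05; fits were tested on simulated data. An "at least" fold sets the brighter mean against each dim array's lowest detected or own signal. The 20 miRNAs detected on the most arrays, the 5 with the smallest p per comparison and listed kin are named. The members and lists were chosen with earlier results of these data known. The number of arrays limits the precision.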

Additional observations from a re-analysis of the deposited data

Results flagged for a closer look

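Single arrays that stood apart from the other 3 of their age were looked for among the 16 miRNAs detected on at least 13 arrays and the number detected per array. Of 68 groups of 4 arrays, 9 held such an array by Dixon's criterion at 95%, where chance alone gives about 1 in 20, or 3.4. On the marked replicate 4 at 36 weeks, miR-3473g, miR-1895 and miR-3473f were each at the floor of 1.92, against 6.45 to 6.93, 5.45 to 5.87 and 5.18 to 5.40 on the other arrays of that age. On the same array miR-1249-3p, which is rich in C, was high at 7.74 against 4.23 to 4.57, although it was not called detected there.

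On unmarked arrays, miR-3963 read 12.92 on replicate 4 at 8 weeks against 11.81 to 11.88. miR-1895 was also high there, at 6.41 against 5.44 to 5.59. miR-1249-3p read 4.68 on replicate 3 at 8 weeks against 3.49 to 3.64. On replicate 2 at 36 weeks, miR-1224-5p was low at 8.51 against 9.36 to 9.52, and miR-2137 at 6.79 against 7.07 to 7.11.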

How the results depend on the processing

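Of 41 tested members, 0 passed in any comparison with all arrays. Array weights in limma, whose fit did not reach its convergence tolerance, gave 32 in the F test (76.5% of all tested). They gave 28 in the trend (68.8% of all), 1 for 36 against 4 weeks (4.21%) and 28 for 58 against 4 (62.1%). For 36 against 8 weeks they gave 23 (63.2%), for 58 against 8 weeks 28 (67.7%) and for 58 against 36 weeks 6 (15.1%). Without the marked arrays the F test called 2 (2.81% of all) and the trend 23 (54.7%). The pair of 36 against 4 weeks then gave 1 (1.75%) and 58 against 4 weeks 8 (12.3%). A fit without these arrays and with slide as a block was added after seeing the data and called 0. Leaving out 1 array in turn gave 0 to 0 calls in every comparison. Detection by a total signal over 5 times its error lowered the mean number detected to 28.2, 25.5, 19.5 and 19 at 4, 8, 36 and 58 weeks. The cause of these changes was not tested.

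Signs turned for uncalled values of members near the floor. Under normexp the trend slopes became 0.063 (miR-3547-5p), 0.0454 (miR-1894-3p), 0.091 (miR-1904) and 0.084 (miR-3102-5p.2-5p). The same correction gave 0.13 (miR-3547-5p) and 0.17 (miR-3102-5p) for 36 minus 4 weeks, 0.26 (miR-3547-5p), 0.29 (miR-1904), 0.21 (miR-3472) and 0.21 (miR-1892) for 58 minus 4 weeks, and 0.17 (miR-1894-3p), 0.31 (miR-3102-5p.2-5p), 0.24 (miR-3067-3p), 0.23 (miR-3473e) and 0.23 (miR-1892) for 58 minus 8 weeks. With slide as a fixed or random block the slopes were 0.25 and 0.14 (miR-1894-3p) and 0.15 and 0.063 (miR-3102-5p.2-5p). Quantile normalization gave 0.0501 for 8 minus 4 weeks and -0.0256 for 36 minus 8 weeks (miR-3968).

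The replicate block gave 0 calls in every comparison. Of 24 pairs of same-numbered arrays, 11 correlated above 0.1 in their deviations from the age means (r from -0.896 to 0.812). Shifts shared by many miRNAs of an array enter these correlations, so they cannot show whether the numbers pair the mice. Scaling on the 75th percentile of all miRNAs could not be run, because that percentile was not above 0 on every array, and a slide block could not be fitted for pairs of ages on different slides. Signal over background limits the values of most members, which lay near the floor.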
